A study of Zea mays with 18 samples.

Results

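This comparison sets the aleurone against the starchy endosperm of maize (Zea mays) kernels that carry the R1-g allele. Its members were the 6 libraries whose titles give R1-g with aleurone (3 libraries) or with starchy endosperm (3 libraries), of 18 libraries in the series, and it covers the 44146 features with Zm00001d identifiers of 46430 features in the count tables. Zm00001d identifiers belong to the gene models of the maize B73 reference annotation. Each compartment was cut out by laser microdissection, and its RNA was amplified and sequenced. Both groups came from the inbred background W22, from field-grown, self-pollinated plants, 19 days after pollination, and both carry R1-g, which the series design calls the wild type. The design text calls the 3 libraries of a group biological replicates, and the number of kernels or plants behind each library is not given in the sources used here. The other libraries of the series come from the same compartments of R1-sc kernels (3 and 3 libraries) and of r1-m3 kernels (3 and 3 libraries). In r1-m3 aleurone replicate 3, 0 of the 13127 Zm00001d features with 50 or more counts were at 0 in both other replicates, against 4.43% to 6.72% in each R1-g and R1-sc aleurone library. Its log2 values, from counts per 1000000 Zm00001d counts plus 1, correlated across features at 0.997 with the mean of those replicates, against 0.771 to 0.807 for the R1-g and R1-sc aleurone libraries. For r1-m3 aleurone replicates 1 and 2, 0 of 11369 and 0 of 11065 such features were at 0 in both other replicates, and the correlations were 0.913 and 0.919. Of these measures, only the correlation sets replicate 3 apart from replicates 1 and 2. Replicate 3 was therefore not counted as a separate replicate and was left out, except where all 18 libraries are named, which leaves 17 libraries. Why its counts track the other replicates was not tested.

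The cereal endosperm has an outer layer of aleurone cells around a body of starchy endosperm. The starchy endosperm fills with starch and storage proteins, which are made from very abundant transcripts. The aleurone stays alive in the mature grain, stores oil and minerals, holds the anthocyanin pigment of coloured kernels and releases enzymes at germination. The R1 locus encodes a transcription factor of the anthocyanin pathway. The comparison asks which gene models mark each compartment in the wild type. The gene table at hand describes another assembly, Zm-B73-REFERENCE-NAM-5.0, and matched 0 of the 44146 identifiers, so features are given by identifier, without names or functions, and the labelled compartments could not be checked against known marker genes.

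Counts on all features ranged from 14.3 M to 17.7 M (M stands for 1000000 counts) in the aleurone libraries and from 14.3 M to 16.9 M in the starchy endosperm libraries. Zm00001d features took 71.5%, 59.1% and 58.7% of these counts in aleurone replicates 1, 2 and 3, against 78.4%, 75.9% and 72.8% in starchy endosperm replicates 1, 2 and 3. The share was lower in every aleurone library than in any starchy endosperm library (63.1% ± 7.27 against 75.7% ± 2.81, SD, n = 3 each). A two-sided exact permutation test of 3 against 3 libraries cannot give a p below 0.1, and it gave 0.1 here (0.15 after adjustment over 6 such measures). Reads that aligned to several places were counted for no feature. Their total was 42.2% to 50.9% of the sum of all counts in the aleurone tables and 49.6% to 52.0% in the starchy endosperm tables. These values need not equal shares of reads. Levels of near-identical gene copies are therefore uncertain in both compartments. Levels below are counts per 1000000 counts (CPM) scaled by TMM factors, which were 1.24 to 1.55 in the aleurone and 0.687 to 0.769 in the starchy endosperm. Fold changes are on this scale. Shares of Zm00001d counts are not scaled by these factors, so a ratio of shares differs from the fold change given beside it.

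Counts were spread over many more gene models in the aleurone than in the starchy endosperm. The most abundant 839, 872 and 775 features made up 50% of the Zm00001d counts in aleurone replicates 1, 2 and 3, whereas 10, 8 and 11 features did so in starchy endosperm replicates 1, 2 and 3. The 20 most abundant features of each library held 11.95% ± 1.29 of Zm00001d counts in aleurone libraries, against 58.1% ± 1.55 in starchy endosperm libraries (SD, n = 3 each). For both measures the groups were fully separated (exact permutation p = 0.1, adjusted 0.15, the smallest the design allows before adjustment).

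**Figure D1:**
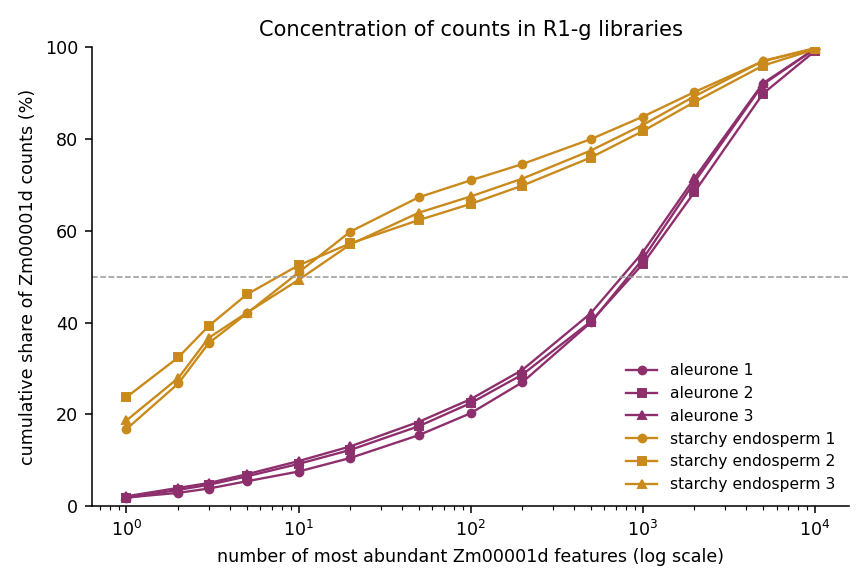
Cumulative share of Zm00001d counts (%, vertical axis) held by the most abundant features of each R1-g library (horizontal axis, number of features, log scale), with aleurone libraries in purple, starchy endosperm libraries in ochre and a dashed line at 50%. The starchy endosperm lines cross 50% at 8 to 11 features and the aleurone lines at 775 to 872.

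Zm00001d020592 was the most abundant gene model of the starchy endosperm. It took 0.405%, 0.987% and 1.05% of Zm00001d counts in aleurone replicates 1, 2 and 3, against 16.8%, 23.8% and 18.7% in starchy endosperm replicates 1, 2 and 3. Every aleurone library lay far below every starchy endosperm library, and the feature still ranked 6 in the aleurone. Its log2 fold change, aleurone over starchy endosperm, was -5.79 (SE 0.316, edgeR adjusted p = 1.82e-13), and -4.91 without TMM factors. The second most abundant, Zm00001d005793, took 0.0616%, 0.0848% and 0.0864% of the counts in the aleurone replicates and 8.75%, 8.67% and 8.74% in the starchy endosperm replicates. The 3 starchy endosperm values were nearly equal. Its log2 fold change was -8.01 (SE 0.359, edgeR adjusted p = 4.04e-15), and -7.09 without TMM factors. The feature ranked 90 in the aleurone.

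The most abundant gene model of the aleurone, Zm00001d035760, was more abundant still in the starchy endosperm, where it ranked 3. It took 1.91%, 1.79% and 2.18% of Zm00001d counts in aleurone replicates 1, 2 and 3, against 9.94%, 6.81% and 9.23% in starchy endosperm replicates 1, 2 and 3 (log2 fold change -3.34, SE 0.283, edgeR adjusted p = 1.82e-09). Its shares in the compartments did not overlap, and without TMM factors its log2 fold change was -2.41. The second most abundant aleurone feature, Zm00001d008620, was on the other side. It stood at 4698, 7544 and 8663 CPM in the aleurone replicates, against 317, 159 and 368 CPM in the starchy endosperm replicates. The groups did not overlap, and the log2 fold change was 4.63 (SE 1.03, edgeR adjusted p = 0.0152). That call did not hold without starchy endosperm replicate 1, 2 or 3 (edgeR adjusted p = 0.0709, 0.0786 and 0.0594). Its SE was the largest of the 4 abundant features named here.

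The 20 most abundant features of the starchy endosperm were chosen by their mean CPM there, which favours a lower level in the aleurone, so their values are a description. Their log2 fold changes ran from -10.63 to -3.34, and 20 of 20 were among the features called lower in the edgeR test below, against 3.67% of all Zm00001d features tested. Together they held 4.12% ± 0.424 of Zm00001d counts in aleurone libraries, against 57.6% ± 1.33 in starchy endosperm libraries (SD, n = 3 each). Their levels were not scaled down by a common factor: the aleurone mean was 0.0628% of the starchy endosperm mean for Zm00001d050032 and 9.87% for Zm00001d035760, with a median of 2.40% over the 20. Zm00001d050032 was singled out after its values were seen. Whether starchy endosperm tissue cut along with the aleurone supplied part of these counts was not tested. The 20 most abundant features of the aleurone, chosen in the same way by their aleurone level, were mixed. Of these, 12 were called higher and 3 lower in the aleurone and 5 were not called, with a median log2 fold change of 6.24, and 3 features were on both lists of 20.

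Across all gene models, similar numbers stood higher and lower in the aleurone. In the edgeR quasi-likelihood test with Benjamini-Hochberg adjustment, 1341 of 18722 Zm00001d features tested were called at an adjusted p under 0.05, 654 higher in the aleurone and 687 lower. Over all 19111 features tested, 7.26% were called, 3.52% higher and 3.74% lower; among Zm00001d features it was 7.16%, 3.49% higher and 3.67% lower. The balance depended on the scaling: with plain library totals, that is without TMM factors, 1108 features were higher and 442 lower, and this moved the median log2 fold change of all features tested to 1.27, against 0.34 with TMM factors. DESeq2 called 3647 features, 2036 higher and 1611 lower. Without starchy endosperm replicate 1, 2 or 3, the higher calls numbered 337, 386 and 331. All 654 higher calls, and 441 of the 687 lower calls, were also made without TMM factors. In a bulk sample, fewer cells that express a gene and less RNA per cell cannot be told apart.

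Most called differences were large, and many were between a compartment with counts and one without. The test itself favours large changes, since replicates varied widely (common biological coefficient of variation 1.45 over 17 libraries). Of 8549 tested features with a change under 4-fold, 22 were called. Of 2277 with a log2 fold change of 8 or more in either direction, 817 were called. The 3 aleurone libraries lay above all 3 starchy endosperm libraries for 636 of the 654 features called higher, and below them for 684 of the 687 called lower. Over all Zm00001d features tested, 13.9% had all aleurone libraries above and 15.5% had all below. The called features were chosen on these same libraries, which favours full separation, so their numbers are a description. Of the 17997 tested features with more than 3 counts in a compartment, 3828 had 0 counts in the other. Of the features called higher, 328 had 0 counts in all 3 starchy endosperm libraries, and of those called lower, 300 had 0 counts in all 3 aleurone libraries. These features were then set at 3 counts over the group, which bounds the pooled fold from below for counting error in that group only. The median log2 fold change was then 7.96 for features called higher and -7.39 for features called lower. The median of the 17997 features with more than 3 counts in a compartment was 0.42. Features with more than 3 counts in both compartments numbered 256 of the higher calls, with a median log2 fold change of 5.72, and 361 of the lower calls, with a median of -4.28. Among these, changes under 4-fold were found in 4 of the higher and 18 of the lower calls.

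**Figure D2:**
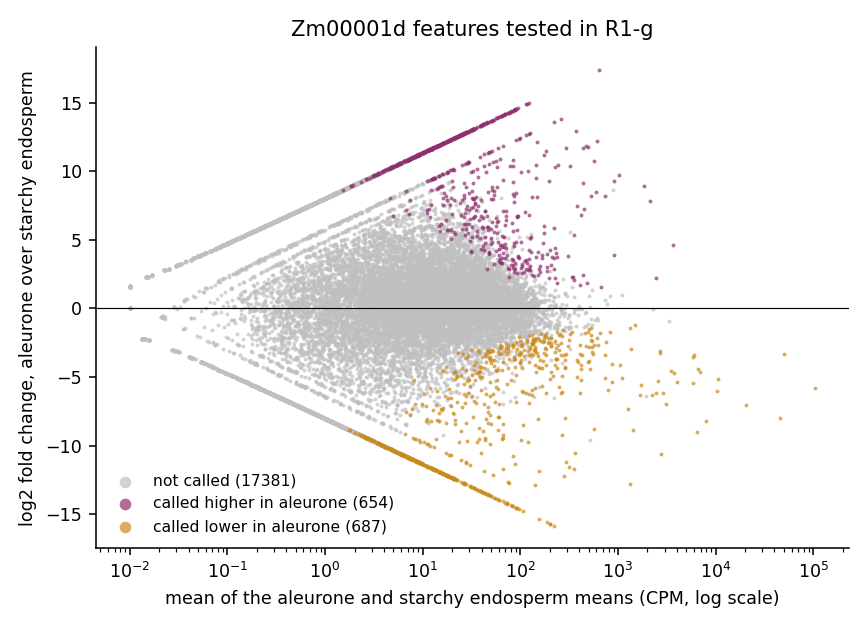
Log2 fold change, aleurone over starchy endosperm (vertical axis), against the mean of the compartment means (CPM, log scale, horizontal axis; values under 0.01 drawn at 0.01) for the 18722 Zm00001d features tested in R1-g, with 654 called higher in the aleurone in purple, 687 called lower in ochre and the rest in grey. The straight upper and lower edges are features with 0 counts in a compartment, whose fitted fold changes depend on the prior count and are no bounds.

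How often a feature was called depended on its level, taken as the mean over the 6 libraries. Of 3983 features under 1 CPM, 0 were called by edgeR. The share called was 4.16% of 7107 features from 1 to 10 CPM, 10.8% of 6892 from 10 to 100 CPM, 37.2% of 697 from 100 to 1000 CPM and 90.7% of 43 at 1000 CPM or more. The balance of directions differed between bands without a steady trend. From 1 to 10 CPM, 116 features were called higher in the aleurone and 180 lower. From 10 to 100 CPM it was 437 higher and 310 lower, from 100 to 1000 CPM 96 higher and 163 lower, and at 1000 CPM or more 5 higher and 34 lower. Over all features tested in a band, called or not, the median log2 fold change was 0.62 from 1 to 10 CPM, 0.53 from 10 to 100 CPM, -0.48 from 100 to 1000 CPM and -5.06 at 1000 CPM or more. A feature can enter a high band through its level in a single compartment. The highest compartment mean was 203800 CPM in the starchy endosperm and 8932 CPM in the aleurone. The directions in the high bands are therefore a description.

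**Figure D3:**
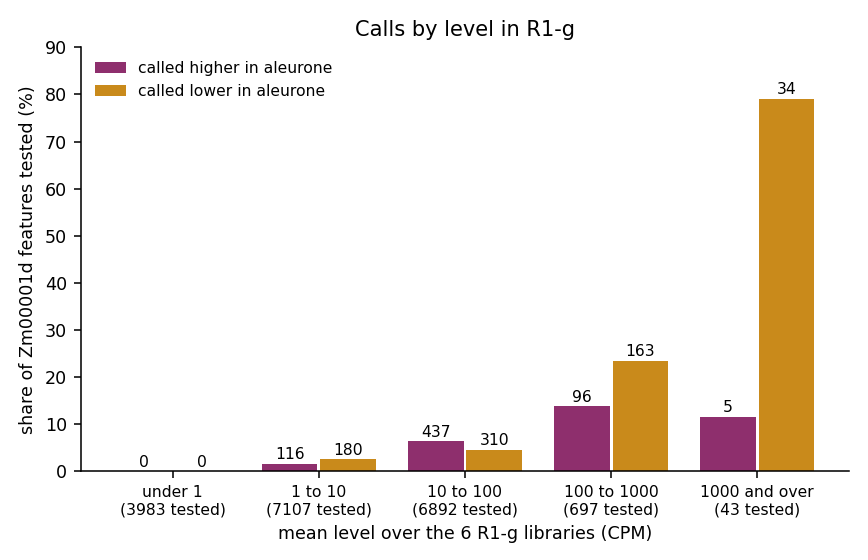
Share of Zm00001d features tested that were called higher (purple) or lower (ochre) in the aleurone (%, vertical axis), in bands of the mean level over the 6 R1-g libraries (CPM, horizontal axis), with the number of called features over each bar. Lower calls make up 34 of the 39 called features at 1000 CPM or more, a band that a feature can enter through its level in a single compartment.

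Aleurone replicates were further apart from each other than starchy endosperm replicates, a description with no test. Over the 7632 Zm00001d features with a mean of at least 10 CPM, the median SD of log2(CPM + 1) between replicates was 1.32 for aleurone libraries and 0.653 for starchy endosperm libraries, and it was larger in the aleurone for 75.2% of the features. Of 10065 features that reached 10 CPM in an aleurone library, 2052 (20.4%) had 0 counts in another aleurone library. In the starchy endosperm it was 374 of 8030 (4.66%). At 100 CPM the counts were 77 of 1934 (3.98%) for the aleurone and 0 of 1162 for the starchy endosperm, and at 1000 CPM no feature had such a gap in either, of 31 and 67. Among called features with at least 10 CPM, the highest replicate stood a median of 3.60-fold above the lowest, after adding 1 CPM, for 618 features called higher (aleurone libraries), and 1.86-fold for 620 features called lower (starchy endosperm libraries).

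The number of gene models with a count was compared at equal depth. With every library thinned to 8.43 M Zm00001d counts, 13395, 14871 and 13550 features were detected in aleurone replicates 1, 2 and 3, and 14142, 15350 and 13256 in starchy endosperm replicates 1, 2 and 3. The ranges overlapped (two-sided exact permutation p = 0.7, where 0.1 is the smallest the design allows). Features with 10 or more counts numbered 11722 ± 695 in aleurone libraries and 10932 ± 667 in starchy endosperm libraries (SD, n = 3 each; exact permutation p = 0.3). Without thinning, 7356 Zm00001d features had counts in all 6 libraries, 790 in all 3 aleurone libraries and no starchy endosperm library, 917 in all 3 starchy endosperm libraries and no aleurone library, and 22360 in none.

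A stricter criterion, set on raw counts without scaling, picked out genes found in a single compartment. With at least 50 counts in each of the 3 libraries of a compartment and 0 counts in all 3 of the other, 317 features were found in the aleurone alone, of 5725 that reached 50 counts in its 3 libraries (5.54%). In the starchy endosperm alone it was 247 of 5736 (4.31%). A count of 0 allows up to 3 counts over the group, or 0.0466 CPM for the aleurone and 0.0868 CPM for the starchy endosperm, and these floors cover counting error only, because the cDNA was amplified and no molecular identifiers are recorded. Without starchy endosperm replicate 2, an alternative added after the data were seen, 501 features met the criterion for the aleurone alone. With fewer libraries that must be at 0, this number could not fall. With every library thinned to equal depth the numbers were 316 and 200. That thinning equalized Zm00001d counts and not the TMM scale. By the floors above, the same count stands for a lower CPM in the aleurone, so the aleurone and starchy endosperm numbers are not on a common scale.

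Zm00001d012572 had the largest fitted change of the features higher in the aleurone. It stood at 1165, 1447 and 1262 CPM in aleurone replicates 1, 2 and 3, and had 0 counts in the 3 starchy endosperm libraries. All aleurone libraries agreed within a narrow range (edgeR adjusted p = 3.73e-11). The pooled aleurone level was 14810-fold above a floor of 3 counts over the starchy endosperm group. It was also found in the libraries that the R1-g comparison did not use: at 679 to 1329 CPM in R1-sc aleurone against 0 counts in R1-sc starchy endosperm, and at 904 and 1106 CPM in r1-m3 aleurone against 2 counts in the 3 r1-m3 starchy endosperm libraries.

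Zm00001d025924 had the second largest fitted change of features higher in the aleurone, with a wider spread. It stood at 84.7, 284 and 373 CPM in the aleurone replicates while no starchy endosperm library had a count (edgeR adjusted p = 6.37e-05). The pooled aleurone level was 2818-fold above a floor of 3 counts over the starchy endosperm group. That value does not cover the spread of the aleurone replicates, and the lowest of them gives a smaller fold. In R1-sc aleurone it varied from 0.222 to 98.5 CPM, with 0 counts in R1-sc starchy endosperm. The lowest R1-sc aleurone library held 5 counts, which is too few to separate it from a starchy endosperm library at 0. In r1-m3 the feature stood at 80.8 and 128 CPM in the aleurone, against 1 count in the 3 starchy endosperm libraries.

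Zm00001d045391 had the largest fitted change of the features lower in the aleurone. It had 0 counts in the 3 aleurone libraries, against 414, 486 and 430 CPM in the starchy endosperm replicates (edgeR adjusted p = 2.10e-11). The pooled starchy endosperm level was 9534-fold above a floor of 3 counts over the aleurone group. In R1-sc it had 0 counts in the aleurone, against 277 to 388 CPM in the starchy endosperm. In r1-m3 it was present at 1.72 and 2.54 CPM in the aleurone, against 442 to 658 CPM in the starchy endosperm.

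Zm00001d036608 had 0 counts in the 3 aleurone libraries, against 473, 225 and 510 CPM in the starchy endosperm replicates (edgeR adjusted p = 1.72e-09). The pooled starchy endosperm level was 8477-fold above a floor of 3 counts over the aleurone group, a value that does not cover the spread of the replicates. The other genotypes did not share this absence. In R1-sc the aleurone libraries held 9.26, 38.2 and 97.5 CPM, against 234, 546 and 419.5 CPM in the starchy endosperm. The r1-m3 aleurone libraries held 26.1 and 4.86 CPM, against 376 to 418 CPM in the r1-m3 starchy endosperm.

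Some abundant gene models stood at about the same TMM-scaled level in both compartments, although equal levels were not shown. Of 276 features with a mean of at least 100 CPM in each compartment, 61 were called, 11 higher and 50 lower in the aleurone, where 3.49% of all Zm00001d features tested were called higher and 3.67% lower. The 95% interval of the log2 difference lay within 1 of 0 for 4 of the 276, and within 2 of 0 for 154. Zm00001d010321 had the interval that reached least far from 0. It stood at 1808, 2489 and 2485 CPM in the aleurone replicates, against 3074, 1430 and 2444 CPM in the starchy endosperm replicates, with overlapping ranges. Its log2 fold change was -0.04, with an interval from -0.79 to 0.72 (edgeR adjusted p = 0.991), and this became 0.90 with library totals without TMM factors. For Zm00001d021046, at 374, 237 and 164 CPM in aleurone libraries and 303, 282 and 196 CPM in starchy endosperm libraries, the log2 fold change was -0.01, with an interval from -0.93 to 0.91, and 0.97 without TMM factors. As a share of Zm00001d counts, both features were higher in every aleurone library than in any starchy endosperm library. The mean shares were 0.501% against 0.221% for Zm00001d010321 and 0.0572% against 0.0250% for Zm00001d021046.

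**Figure D4:**
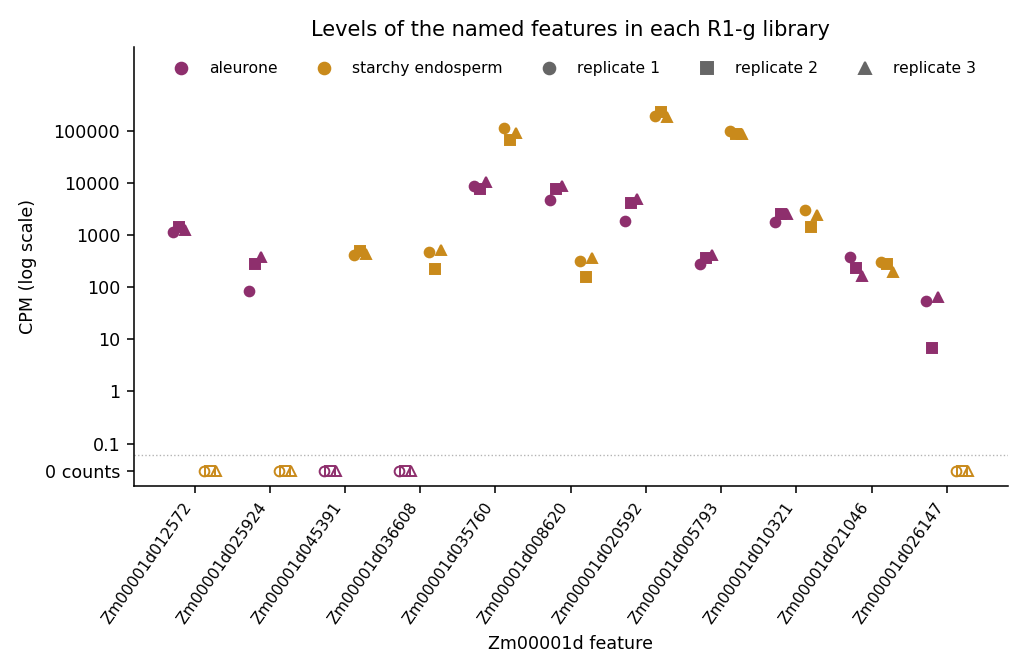
Level (CPM, log scale, vertical axis) of the 11 features named by rule (horizontal axis) in each R1-g library, with aleurone libraries in purple at the left of each pair, starchy endosperm libraries in ochre at the right, replicates by symbol and 0 counts as open symbols under the dotted line. Zm00001d012572, Zm00001d025924 and Zm00001d026147 have 0 counts in the starchy endosperm, and Zm00001d045391 and Zm00001d036608 have 0 counts in the aleurone.

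The R1-sc and r1-m3 libraries share no library with the R1-g comparison, so they show the same contrast in other kernels. Almost all features called in R1-g pointed the same way there. Of the 654 called higher in R1-g aleurone, 98.6% also had a positive log2 fold change in R1-sc and 97.6% in r1-m3, where 55.9% and 56.7% of all Zm00001d features tested were positive. Of the 687 called lower, 95.5% had a negative one in R1-sc and 96.5% in r1-m3. Since 55.9% and 56.7% of all features tested were positive, only a minority of them was negative there. In R1-sc, 516 of the 654 (78.9%) were called higher as well, which is 46.9% of the 1101 features called higher in R1-sc, against 5.88% of all features tested. In r1-m3, with 2 aleurone libraries, it was 399 (61.0%, and 69.6% of the 573 called there), against 3.06%. Of the 687 called lower, 423 (61.6%, and 52.5% of the 805 called there) were called lower in R1-sc, against 4.30% of all features tested. In r1-m3 it was 247 (36.0%, and 85.2% of the 290 called there), against 1.55%. No feature was called in opposite directions: 0 of the 1341 in either genotype by edgeR. The 3 contrasts come from a single fit and share its filter, scaling and estimate of the spread. Calls are therefore not fully independent even though the libraries are.

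Features found in a single R1-g compartment were looked up in the other genotypes. Of the 317 features found in R1-g aleurone alone, 268 (84.5%) had 0 counts in all 3 R1-sc starchy endosperm libraries and 229 (72.2%) in all 3 r1-m3 starchy endosperm libraries. Of all 5725 features with 50 counts in each R1-g aleurone library, 9.45% and 7.58% did, and of all 44146 Zm00001d features, 63.2% and 61.7%. Of the 247 found in R1-g starchy endosperm alone, 136 (55.1%) had 0 counts in all 3 R1-sc aleurone libraries and 108 (43.7%) in both r1-m3 aleurone libraries. Of all 5736 features with 50 counts in each R1-g starchy endosperm library, 4.17% and 2.84% did, and of all 44146, 59.6% and 56.9%. The full criterion, with 50 counts in each library of the compartment and 0 in the other, was met again in R1-sc by 159 of the 317 (50.2%) and by 78 of the 247 (31.6%). The difference between these shares was not tested. Over all 44146 Zm00001d features the criterion picked 499 aleurone and 174 starchy endosperm features in R1-sc. In r1-m3 it picked 847 and 134, with 2 aleurone libraries in place of 3, which makes it easier to meet for the aleurone.

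**Figure D5:**
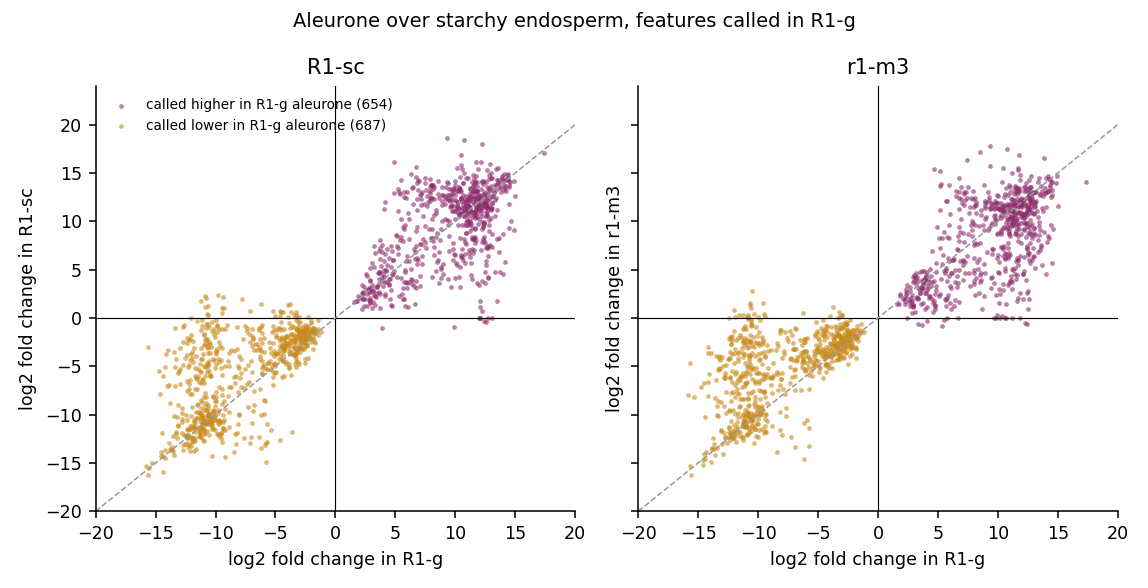
Log2 fold change, aleurone over starchy endosperm, in R1-sc (left) and r1-m3 (right) on the vertical axes against R1-g on the horizontal axes, for the 654 features called higher (purple) and 687 called lower (ochre) in R1-g aleurone; the dashed line marks equal changes. Most points share the sign of R1-g, and among the lower calls with the largest changes in R1-g many lie nearer to 0 in the other genotypes; the features were chosen by their R1-g values.

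How many gene models had a compartment contrast that differed between R1-g and another genotype depended on the tool. Against R1-sc, 23 of 18722 Zm00001d features passed (0.123%) in edgeR, and 1958 had an unadjusted p under 0.05. Against r1-m3, 15 passed (0.0801%), and 1491 had an unadjusted p under 0.05. DESeq2 called 811 against R1-sc and 542 against r1-m3, and edgeR with all 18 libraries called 24 against r1-m3. The edgeR lists of 23 and 15 shared 7 features and held 31 in all. Of the 23, 20 were features called lower in R1-g aleurone, and 19 of these had counts in every R1-sc aleurone library. Their median log2 fold change was -10.28 in R1-g and -3.04 in R1-sc, and 4 of the 20 had 0 counts in R1-g aleurone, so that their fitted values are no bounds. The 20 were picked by this same difference, which favours a wide gap between the medians.

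Among the abundant genes the contrast differed for Zm00001d005793. This feature took 0.0776% of Zm00001d counts in R1-g aleurone, 0.419% in R1-sc aleurone and 0.323% in r1-m3 aleurone (means of 3, 3 and 2 libraries). In the starchy endosperm the R1-g mean was 8.72%, with 7.31% for R1-sc and 7.09% for r1-m3. All 3 R1-g aleurone libraries, at 284 to 410 CPM, lay below all R1-sc (1588 to 2621 CPM) and r1-m3 (1011 and 1584 CPM) aleurone libraries. The R1-g log2 fold change minus that of R1-sc was -2.85 (SE 0.381, edgeR adjusted p = 0.000174), and minus that of r1-m3 it was -2.28 (SE 0.395, edgeR adjusted p = 0.00774). The r1-m3 call did not hold with features of at least 10 CPM in 3 libraries (edgeR adjusted p = 0.051). Zm00001d020592, which was still more abundant, gave differences of -0.48 (SE 0.364, edgeR adjusted p = 0.769) and 0.09 (SE 0.386, edgeR adjusted p = 1). The 20 most abundant features of R1-g starchy endosperm together held 4.12% ± 0.424 of R1-g aleurone counts, 4.40% ± 0.217 of R1-sc aleurone counts (SD, n = 3 each) and 3.66% and 4.02% in the r1-m3 aleurone libraries.

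Zm00001d026147 showed the contrast that differed in the other direction. It stood at 53.7, 6.84 and 65.3 CPM in R1-g aleurone with no count in any R1-g starchy endosperm library (edgeR adjusted p = 2.66e-07). The pooled R1-g aleurone level was 498-fold above a floor of 3 counts over the starchy endosperm group. That value does not cover the spread of the aleurone replicates, and the lowest of them gives a smaller fold. In R1-sc it stood at 373, 189 and 31.5 CPM in the aleurone, against 235, 273 and 259 CPM in the starchy endosperm. In r1-m3 it stood at 270 and 161 CPM in the aleurone, against 303, 292 and 423 CPM in the starchy endosperm. It was called in R1-g and in neither other genotype (log2 fold change -0.37 in R1-sc, SE 0.707, edgeR adjusted p = 0.777; -0.65 in r1-m3, SE 0.804, edgeR adjusted p = 0.678). The difference itself passed against R1-sc (edgeR adjusted p = 5.35e-05) and against r1-m3 (0.000167). R1-g starchy endosperm had 0 counts, whereas every starchy endosperm library of the other genotypes held 235 to 423 CPM.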

How the data were processed

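RNA of compartments cut out by laser microdissection was amplified from 5 ng (Ovation RNA-Seq System V2) before library preparation from about 400 ng of cDNA, per the labels' protocols. The deposited tables hold whole-number counts of reads per feature, without normalization, and 5 totals of reads given to no feature, which were left out of library sizes. The submitters' processing notes list HTSeq 0.11.2, HISAT2, Trimmomatic 0.39, SAMtools, FastQC and DESeq2, and the build B73 RefGen_v4. Settings and the strand option are not given in the sources used here, so reads of overlapping or antisense features may be mixed.

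The test was that of edgeR 4.0.16 (R 4.3.3), with filterByExpr over 6 groups of genotype and compartment, TMM scaling, and robust quasi-likelihood F tests of group means over 17 libraries, adjusted by Benjamini and Hochberg over all 19111 features tested and called under 0.05. Only Zm00001d features are counted. SE is the log2 fold change divided by the square root of F. The members, lists and the exclusion of r1-m3 aleurone replicate 3 were chosen with earlier results of these data known. Named features follow a rule: of called features whose libraries did not overlap and whose higher mean reached 10 CPM, the 2 with the largest fitted change in each direction; the 2 most abundant of each compartment; of features with at least 100 CPM in both compartments, the 2 with the interval nearest to 0; and the 2 called features with the smallest adjusted p for a difference between genotypes. Planned gene lists and marker checks needed names and were void. Alternatives included DESeq2 1.42.0, other scalings and filters, a replicate block and leaving out each library. The scripts were tested on simulated counts, with a spread capped below the common spread of these data and changes planted in the more abundant features only. That test checks the code and says little about recovery or false calls in these data.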

Additional observations from a re-analysis of the deposited data

Results flagged for a closer look

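The compartment contrast of R1-g differed from that of another genotype, by the test of the difference itself, for 23 Zm00001d features against R1-sc and for 15 against r1-m3 (edgeR adjusted p under 0.05). Of the features named above, Zm00001d036608 had a fitted difference of -12.63 against R1-sc (edgeR adjusted p = 1.15e-05) and of -11.00 against r1-m3 (edgeR adjusted p = 0.000167), with 0 counts in R1-g aleurone and counts in every aleurone library of the other genotypes. Zm00001d045391 differed against r1-m3, by -7.80 (edgeR adjusted p = 0.000167), where the r1-m3 aleurone libraries held 43 and 56 counts. For Zm00001d005793 the differences were -2.85 and -2.28. Zm00001d026147 had 12.78 against R1-sc and 13.07 against r1-m3, with 0 counts in R1-g starchy endosperm. Fitted differences that involve a group with 0 counts depend on the prior count and are no bounds. Under every alternative run in which they were fitted, the differences of these 4 features kept their sign and passed at 0.05, except that of Zm00001d005793 against r1-m3 with features of at least 10 CPM in 3 libraries (edgeR adjusted p = 0.051).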

How the results depend on the processing

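DESeq2 called 3647 features in R1-g, 2036 higher and 1611 lower in the aleurone, and 811 and 542 for the differences against R1-sc and r1-m3. Without TMM factors, 1108 were higher and 442 lower, and no filter on low counts gave 996 higher. All 18 libraries gave 24 features for the difference against r1-m3. Leaving out each R1-g library in turn gave 826 to 1135 calls, 331 to 565 higher and 492 to 570 lower, with 829, 905 and 826 calls without starchy endosperm replicate 1, 2 and 3; without the same replicates the higher calls were 337, 386 and 331. The differences between genotypes gave 19 to 26 and 10 to 19 calls. In all 6 of these fits, 292 of the 654 higher and 383 of the 687 lower calls were kept, and 277 and 329 were called under all 17 settings. Features found in a single compartment numbered 352 to 501 (aleurone) and 289 to 363 (starchy endosperm) with a library left out, 137 and 91 with a minimum of 200 counts, and 390 for the starchy endosperm with a minimum of 20. As a share of the counts of all features, the 20 most abundant Zm00001d features held 7.48% in aleurone libraries and 44.0% in starchy endosperm libraries. With features of every kind ranked together, a mean of 188.7 features in the aleurone (352, 114 and 100 in replicates 1, 2 and 3) and of 13 in the starchy endosperm made up 50% of all feature counts. The single-compartment criterion asks less with a library left out or with a lower minimum of counts, so its numbers could not fall there. With a higher minimum they could not rise. The cause of the other changes was not tested.

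With the replicate block, 1161 features were called, 540 higher and 621 lower, with 19 and 15 for the differences between genotypes. The labels do not say what a replicate number shares, and deviations of same-numbered aleurone and starchy endosperm libraries correlated at -0.0116, 0.000202 and -0.00708, so the numbers were not taken to pair the libraries. Zm00001d008620 was not called under the block (edgeR adjusted p = 0.0503) or without a starchy endosperm library. The even features Zm00001d010321 and Zm00001d021046 were not called under any setting. Their log2 fold changes changed sign between settings, from -0.288 to 0.898 and from -0.378 to 0.966. The other named features kept their call under every alternative that fitted them. Depth limits features under 1 CPM, where 3 counts correspond to 0.133 to 0.284 CPM per library.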
